A study of Homo sapiens with 18 samples.

Results

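A set of 10 long non-coding RNA genes that carry small nucleolar RNAs (snoRNAs) in their introns were followed in KBM7 cells, a human chronic myelogenous leukaemia line, after 5 h with 5 compounds. The genes were taken by name: GAS5, SNHG1, SNHG5, SNHG8, SNHG12, SNHG15, SNHG16, ZFAS1, DANCR and EPB41L4A-AS1. They are 10 of 58051 genes listed in the tables, and all 10 were among the 15055 genes with enough reads to test. The 6 groups had 3 libraries each, of the same line and the same 5 h: the 4 dCeMM compounds, numbered dCeMM-1 to dCeMM-4 and each given at 10 times its EC50 (the concentration of half-maximal effect), THZ531 at 600 nM, and the solvent DMSO. From the published work on these compounds, dCeMM-1 is known to degrade the splicing factor RBM39, dCeMM-2, dCeMM-3 and dCeMM-4 to degrade cyclin K, and THZ531 to inhibit CDK12 and CDK13, which work as partners of cyclin K. The libraries come from 1 cell line, and the labels call the 3 libraries of a group triplicates without saying that they came from separate cultures, so p-values measure the spread between these libraries.

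snoRNAs guide the chemical modification of ribosomal RNA, and in vertebrates most are cut out of introns of host genes rather than made from genes of their own. A host of the SNHG kind is spliced, its introns yield the snoRNAs, and the joined exons leave as a polyadenylated RNA with no long reading frame. Many such hosts start with a 5′ terminal oligopyrimidine (TOP) tract like that of ribosomal protein mRNAs. The spliced RNAs of several hosts, GAS5 and SNHG1 among the first described, are loaded with ribosomes and destroyed by nonsense-mediated decay (NMD), so that their level is known to depend strongly on how fast they are degraded. Poly-A selected reads report the spliced host RNA and say little of the mature snoRNAs.

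Gene counts per library ranged from 4598576 to 17943571, with the third DMSO library the shallowest, and the 10 members together held 5033 to 36489 counts per library. Of 10 blood and myeloid progenitor genes all 10 exceeded 5 CPM (counts relative to the library size) in DMSO cells, and of 8 markers of other cell types 2 did, the keratin KRT8 and the adhesion molecule PECAM1. Levels and changes are given on 2 scales. The TMM scale sets each library against the bulk of its own genes, and the spike-in scale sets it against the added synthetic ERCC and SIRV RNAs. The spike-in share of counts was 0.155% to 0.191% with dCeMM-1, 0.429% to 0.585% with dCeMM-2, 0.471% to 0.611% with dCeMM-3, 0.195% to 0.290% with dCeMM-4 and 0.416% to 0.591% with THZ531, against 0.167% to 0.202% in DMSO. Whether the spike-in amount followed cell number or RNA mass is not stated in the labels, and in bulk samples fewer cells and less RNA per cell cannot be told apart. Mitochondrial genes held 4.73% to 5.67% of gene counts with dCeMM-1, 5.09% to 9.10% with dCeMM-2, 10.5% to 14.9% with dCeMM-3, 4.58% to 7.30% with dCeMM-4 and 8.17% to 12.9% with THZ531, against 4.62% to 5.89% in DMSO. Entries for alignments not placed uniquely, as a share of gene, ambiguous, no-feature and such entries together, were 27.0% to 31.9%, 35.7% to 36.9%, 38.7% to 44.4%, 28.7% to 30.0% and 36.2% to 39.8% in the same order of compounds, against 27.7% to 29.5% in DMSO. Both shares lay above the DMSO range in every dCeMM-3 and THZ531 library, and with dCeMM-2 the second did while the first overlapped that range. Their part in the results was not tested.

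The snoRNA host RNAs rose relative to the other genes with dCeMM-2, dCeMM-3 and THZ531, 7 of the 10 by 2.06 to 4.95 times with each of these 3, and 9 rose with dCeMM-4 and 7 with dCeMM-1, with smaller medians. The share of all genes that rose by as many times was not counted. The members' share of all gene counts was 0.136% to 0.140% with dCeMM-1, 0.245% to 0.255% with dCeMM-2, 0.235% to 0.247% with dCeMM-3, 0.138% to 0.143% with dCeMM-4 and 0.232% to 0.234% with THZ531, against 0.109% to 0.111% in DMSO. On the spike-in scale most of those rises were gone: GAS5, ZFAS1, SNHG5, SNHG8 and SNHG12 lay between -0.34 and 0.22 (log2 fold change against DMSO) with dCeMM-2, dCeMM-3 and THZ531 and passed no test, while the median of all genes lay between -1.96 and -1.80. SNHG15, DANCR and SNHG16 changed less or in another direction on the TMM scale, and with these 3 compounds their spike-in values were lower than in DMSO. SNHG1 was also called lower by spike-in with these 3, at -0.44, -0.57 and -0.81. EPB41L4A-AS1 was at 0.49, 0.31 and 0.16 there, and only the value with dCeMM-2 was called. A gene was called at a Benjamini-Hochberg adjusted p under 0.05 in edgeR's quasi-likelihood test over all 15055 genes.

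**Figure D1:**
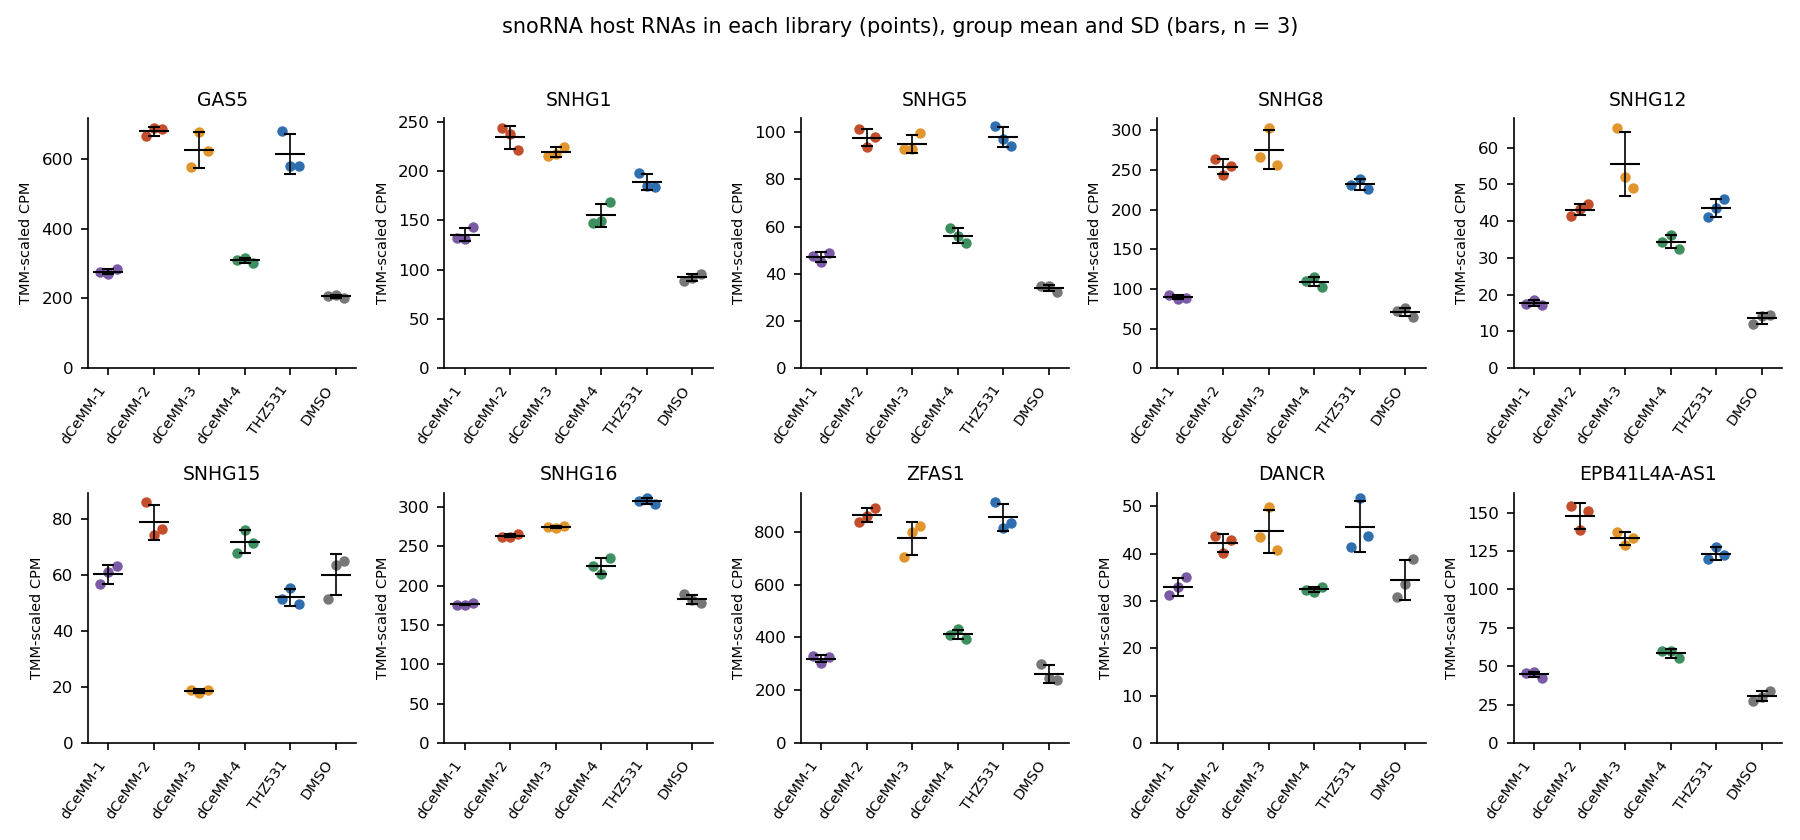
TMM-scaled CPM of each of the 10 snoRNA host RNAs (one panel per gene, linear axes from 0) in every library by group, with points for libraries and black bars for the group mean and SD (n = 3). In 7 panels the dCeMM-2, dCeMM-3 and THZ531 libraries stand well above DMSO, and in the SNHG15 panel the dCeMM-3 libraries lie lowest, at 17.7 to 19.0 CPM.

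Members were called on the TMM scale in these numbers. With dCeMM-1, 7 of 10 were higher and 0 lower, where 16.5% of all genes tested were called higher and 14.8% lower. With dCeMM-2, 10 were higher and 0 lower, against 37.1% and 41.2% of all genes. With dCeMM-3, 9 were higher and 1, SNHG15, was lower, against 35.9% and 45.1%. With dCeMM-4, 9 were higher and 0 lower, against 32.9% and 35.3%. With THZ531, 9 were higher and 1, SNHG15 again, was lower, against 35.8% and 43.7%. The members' shares called higher lay above the share of all genes in each of the 5 comparisons, which all use the same 3 DMSO libraries. The members were chosen with earlier results of these data known, so this excess is a description and not a test. The median log2 fold change of the members was 0.37 with dCeMM-1, 1.60 with dCeMM-2, 1.52 with dCeMM-3, 0.63 with dCeMM-4 and 1.54 with THZ531, beside medians of all genes of 0.03, -0.02, -0.15, 0.01 and -0.10.

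The sequence around the RefSeq start was read for 9 of the 10 members from RefSeq promoters (GRCh38.p14). A C followed by at least 4 pyrimidines, beginning within 5 bases of the start on the sense strand, was found in 6 of 9 members, against 18.1% of 35116 promoters. These 6 starts are shown because the pyrimidine run is the feature that TOP RNAs share. Each window is 35 bases before to 50 bases from the start, and the capitals mark the run.
SNHG5 (chr6:85678684-85678768, minus strand): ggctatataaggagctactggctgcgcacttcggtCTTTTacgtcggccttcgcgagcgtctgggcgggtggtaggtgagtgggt
SNHG8 (chr4:118278727-118278811, plus strand): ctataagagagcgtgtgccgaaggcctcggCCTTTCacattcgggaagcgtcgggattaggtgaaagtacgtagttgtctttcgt
SNHG12 (chr1:28581824-28581908, minus strand): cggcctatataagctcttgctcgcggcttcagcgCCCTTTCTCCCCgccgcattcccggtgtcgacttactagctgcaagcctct
SNHG16 (chr17:76557729-76557813, plus strand): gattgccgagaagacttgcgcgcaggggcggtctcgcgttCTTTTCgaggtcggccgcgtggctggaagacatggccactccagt
ZFAS1 (chr20:49278607-49278691, plus strand): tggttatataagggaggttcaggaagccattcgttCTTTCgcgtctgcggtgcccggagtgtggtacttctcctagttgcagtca
DANCR (chr4:52712359-52712443, plus strand): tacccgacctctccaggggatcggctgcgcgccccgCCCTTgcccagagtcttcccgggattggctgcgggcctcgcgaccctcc
The run stood at the RefSeq start in SNHG5 and ZFAS1, which rose with dCeMM-2 by 1.51 and 1.72, and within 5 bases of it in SNHG8, SNHG12, SNHG16 and DANCR, which rose by 1.83, 1.69, 0.52 and 0.32. The 3 members read without such a run, GAS5, SNHG1 and EPB41L4A-AS1, rose by 1.72, 1.35 and 2.31. RefSeq and GENCODE place the gene start 163 bases apart for GAS5, 464 for ZFAS1 and 1259 for SNHG12, and at most 53 apart for the other 6, and a run at another start was not searched.

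The 300-base promoters (250 bases before and 50 from the start) were searched on both strands for 5 motifs. TATATAA was found in SNHG5, SNHG12 and ZFAS1, 3 of 9, against 2.57% of all promoters, and it can be read in the lower-case part of those 3 windows. ACTACA followed, after any 2 bases, by TCCCA was found in SNHG12, SNHG16 and ZFAS1, 3 of 9, against 1.36%. The 3 matches lie 99, 83 and 118 bases before the start and are shown because this pattern was the rarest of the 5 among all promoters, with the match in capitals.
SNHG12 (chr1:28581952-28581980, minus strand): gcgagcaaACTACAACTCCCAggcagctg
SNHG16 (chr17:76557673-76557701, plus strand): agttttgaACTACATTTCCCAccagccct
ZFAS1 (chr20:49278516-49278544, plus strand): tgctcgagACTACATTTCCCAgagcgacg
GGGCGG was in 7 of 9 (45.0% of all promoters), CCAAT in 3 of 9 (34.6%) and TATAAA in 1 of 9 (11.5%). A match describes letters in the window, and the 3 genes with the rare pattern rose by 1.69, 0.52 and 1.72 with dCeMM-2 on the TMM scale.

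GAS5 (growth arrest specific 5) is the classical TOP and NMD-controlled host of box C/D snoRNAs and lies on chromosome 1, 173863900 to 173868882, minus strand (GRCh38, as are all positions of genes). It had 277, 272 and 284 CPM with dCeMM-1, 665, 688 and 687 with dCeMM-2, 577, 678 and 622 with dCeMM-3, 311, 316 and 300 with dCeMM-4, and 679, 580 and 581 with THZ531, against 206, 211 and 202 CPM in DMSO. No treated library overlapped DMSO, and the dCeMM-2, dCeMM-3 and THZ531 libraries overlapped each other. Its TMM log2 fold change was 0.42 (SE 0.06) with dCeMM-1, 1.72 (SE 0.07) with dCeMM-2, 1.60 (SE 0.07) with dCeMM-3, 0.58 (SE 0.06) with dCeMM-4 and 1.57 (SE 0.07) with THZ531, with adjusted p between 6.3e-24 and 2.7e-06. Per 1000 spike-in reads there were 165, 171 and 210 GAS5 reads with dCeMM-1, 115, 148 and 109 with dCeMM-2, 104, 100 and 128 with dCeMM-3, 101, 156 and 136 with dCeMM-4 and 141, 91.1 and 92.3 with THZ531, against 111, 142 and 137 in DMSO. On that scale only the dCeMM-1 libraries stood clear of DMSO, and none of the 5 changes in GAS5 passed the test (log2 fold change 0.48 with dCeMM-1 and -0.27 to 0.01 with the others).

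EPB41L4A-AS1, the host of SNORA13 on chromosome 5 (112160526 to 112164276, plus strand), showed the largest TMM rise of the 10 with each compound except dCeMM-4. Its libraries held 45.3, 46.1 and 42.5 CPM with dCeMM-1, 154, 139 and 151 with dCeMM-2, 138, 129 and 133 with dCeMM-3, 60.2, 60.0 and 55.1 with dCeMM-4, and 120, 128 and 123 with THZ531, against 27.5, 30.2 and 33.7 CPM in DMSO. All 15 treated libraries exceeded all 3 DMSO libraries. The folds were 1.49, 4.95, 4.46, 1.95 and 4.12 in that order of compounds (log2 fold change 0.58, 2.31, 2.16, 0.96 and 2.04, each with SE 0.08, adjusted p at most 4.8e-07). It was also the 1 member that was higher with dCeMM-2 on the spike-in scale, at 0.49 (SE 0.22, adjusted p = 0.029), with 26.7, 29.9 and 24.0 reads per 1000 spike-in reads in dCeMM-2 libraries against 14.8, 20.3 and 22.8 in DMSO libraries.

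ZFAS1, which hosts the SNORD12 family on chromosome 20 (49278178 to 49295738, plus strand), and SNHG8, which hosts SNORA24 on chromosome 4 (118278709 to 118279823, plus strand), moved much as GAS5 did. ZFAS1 had 840, 860 and 893 CPM with dCeMM-2, 706, 799 and 824 with dCeMM-3 and 915, 816 and 836 with THZ531, against 301, 245 and 239 CPM in DMSO, a log2 fold change of 1.72, 1.56 and 1.71 (SE 0.07 each). SNHG8 had 264, 244 and 255 CPM with dCeMM-2, 267, 304 and 257 with dCeMM-3 and 231, 239 and 226 with THZ531, against 71.9, 75.4 and 65.2 CPM in DMSO, a log2 fold change of 1.83, 1.95 and 1.70 (SE 0.07 each). Both stood above DMSO in every one of these libraries. On the spike-in scale neither passed the test with any of the 3 compounds: ZFAS1 lay at -0.05, -0.24 and -0.12 and SNHG8 at 0.05, 0.12 and -0.14, with SE 0.20 to 0.21.

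SNHG1, the host of 7 annotated snoRNAs on chromosome 11 (62851988 to 62855914, minus strand), rose on the TMM scale by 0.56, 1.35, 1.26, 0.76 and 1.04 with dCeMM-1 to dCeMM-4 and THZ531 in that order (SE 0.07 each). Its libraries held 132, 131 and 143 CPM with dCeMM-1, 244, 238 and 221 with dCeMM-2, 216, 218 and 225 with dCeMM-3, 147, 150 and 169 with dCeMM-4 and 198, 186 and 184 with THZ531, against 88.9, 91.6 and 96.0 CPM in DMSO. Unlike GAS5 and ZFAS1, SNHG1 was called lower on the spike-in scale with dCeMM-2 (-0.44, SE 0.21, adjusted p = 0.043), dCeMM-3 (-0.57, SE 0.21, adjusted p = 0.0077) and THZ531 (-0.81, SE 0.21, adjusted p = 0.00016). Its dCeMM-2 and DMSO libraries overlapped on that scale, and a difference between SNHG1 and GAS5 or ZFAS1 was not tested. SNHG5, the host of SNORD50 snoRNAs on chromosome 6 (85660950 to 85678748, minus strand), had 101, 93.8 and 97.9 CPM with dCeMM-2, 92.7, 92.7 and 99.5 with dCeMM-3 and 102, 96.9 and 94.3 with THZ531, against 34.8, 34.9 and 32.4 CPM in DMSO. That is a log2 fold change of 1.51, 1.47 and 1.51 (SE 0.08 each), with -0.27, -0.34 and -0.32 on the spike-in scale, none past the test.

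SNHG12, the host of SNORA61, SNORA44, SNORA16A and SNORD99 on chromosome 1 (28578538 to 28583132, minus strand), had the lowest CPM of the 10 in DMSO cells and the largest TMM rise with dCeMM-4. Its libraries held 17.5, 18.7 and 17.2 CPM with dCeMM-1, 41.5, 43.3 and 44.7 with dCeMM-2, 65.4, 52.0 and 48.9 with dCeMM-3, 34.4, 36.2 and 32.6 with dCeMM-4 and 41.0, 43.6 and 46.1 with THZ531, against 11.9, 14.1 and 14.6 CPM in DMSO. With dCeMM-4 the log2 fold change was 1.37 (SE 0.11, adjusted p = 2e-14) on the TMM scale. It was 0.78 (SE 0.23, adjusted p = 0.0016) on the spike-in scale, where 11.2, 17.8 and 14.8 reads per 1000 spike-in reads with dCeMM-4 stood against 6.43, 9.49 and 9.84 in DMSO. With dCeMM-2, dCeMM-3 and THZ531 the TMM values were 1.69, 2.06 and 1.71 and the spike-in values were -0.11, 0.22 and -0.16, none of these past the test.

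SNHG15, the host of SNORA9 on chromosome 7 (44983023 to 44986961, minus strand) and known as a short-lived RNA, was the member that differed most between compounds. It had 56.5, 60.8 and 62.9 CPM with dCeMM-1, 85.8, 74.0 and 76.3 with dCeMM-2, 18.7, 17.7 and 19.0 with dCeMM-3, 67.8, 76.0 and 71.5 with dCeMM-4, and 51.2, 55.3 and 49.4 with THZ531, against 51.5, 63.5 and 64.8 CPM in DMSO. The dCeMM-3 libraries lay under all others, the dCeMM-2 and dCeMM-4 libraries lay above DMSO, and the dCeMM-1 and THZ531 libraries overlapped DMSO. The TMM log2 fold change was -1.68 (SE 0.09, adjusted p = 4.6e-19) with dCeMM-3, which is 3.20 times lower, 0.41 (SE 0.08) with dCeMM-2 and 0.27 (SE 0.08) with dCeMM-4. With THZ531 it was -0.19 (SE 0.09, adjusted p = 0.038), a call that was lost with DESeq2 (-0.06), with DESeq2 size factors (-0.04) and in a fit of these 2 groups alone (-0.01). It was also lost without the first THZ531 library (-0.20), the third THZ531 library (-0.17), the second DMSO library (-0.14) or the third DMSO library (-0.17). On the spike-in scale it was lower with dCeMM-2 (-1.41), dCeMM-3 (-3.53) and THZ531 (-2.07), SE 0.22 to 0.24.

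DANCR, an anti-differentiation RNA that hosts SNORA26 on chromosome 4 (52712404 to 52720351, plus strand), and SNHG16, which hosts the SNORD1 family on chromosome 17 (76557766 to 76565348, plus strand), rose by less than 1.7 times on the TMM scale. SNHG16 had 262, 262 and 266 CPM with dCeMM-2, 275, 273 and 276 with dCeMM-3, 225, 215 and 235 with dCeMM-4 and 308, 311 and 304 with THZ531, against 189, 181 and 178 CPM in DMSO, rises of 0.52, 0.58, 0.30 and 0.75 (SE 0.06 each). DANCR had 43.7, 40.0 and 42.9 CPM with dCeMM-2, 43.5, 49.8 and 40.8 with dCeMM-3, 32.4, 31.9 and 33.0 with dCeMM-4 and 41.5, 51.7 and 43.7 with THZ531, against 30.7, 33.7 and 38.9 CPM in DMSO. The dCeMM-4 libraries overlapped DMSO and the other 9 did not. DANCR rose by 0.32, 0.40 and 0.43 with dCeMM-2, dCeMM-3 and THZ531 (SE 0.09 to 0.10) and stood at -0.06 with dCeMM-4, not past the test. On the spike-in scale both were lower with dCeMM-2, dCeMM-3 and THZ531, SNHG16 at -1.26, -1.23 and -1.10 and DANCR at -1.50, -1.47 and -1.46. DANCR was also the 1 member called lower with dCeMM-4 there, at -0.66 (SE 0.22, adjusted p = 0.0065). With dCeMM-1 neither passed the test, at -0.05 (SE 0.06) for SNHG16 and -0.03 (SE 0.09) for DANCR.

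Counted on the spike-in scale, 0 members were higher and 0 lower with dCeMM-1, where 2.83% of all genes were higher and 1.34% lower. With dCeMM-2, 1 member was higher and 4 were lower (1.48% and 83% of all genes), with dCeMM-3, 0 and 4 (1.12% and 83.7%), with dCeMM-4, 1 and 1 (6.3% and 48%), and with THZ531, 0 and 4 (1.32% and 84.7%). The 4 lower members were SNHG1, SNHG15, SNHG16 and DANCR with each of dCeMM-2, dCeMM-3 and THZ531. The 7 members called higher with dCeMM-1 on the TMM scale lay at 0.36 to 0.62 on the spike-in scale and passed no test there, with an SE of 0.20 to 0.23 on the spike-in scale and 0.06 to 0.11 on the TMM scale. The median change of the members on the spike-in scale was 0.43, -0.19, -0.29, 0.08 and -0.29 with dCeMM-1 to dCeMM-4 and THZ531 in that order, beside 0.10, -1.80, -1.96, -0.56 and -1.94 for all genes. The distance of the members' median to that of all genes was 0.33 with dCeMM-1, 1.61 with dCeMM-2, 1.67 with dCeMM-3, 0.64 with dCeMM-4 and 1.64 with THZ531 on this scale. These distances are not separate from the TMM result, since a change of scale shifts every gene by nearly the same amount.

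**Figure D2:**
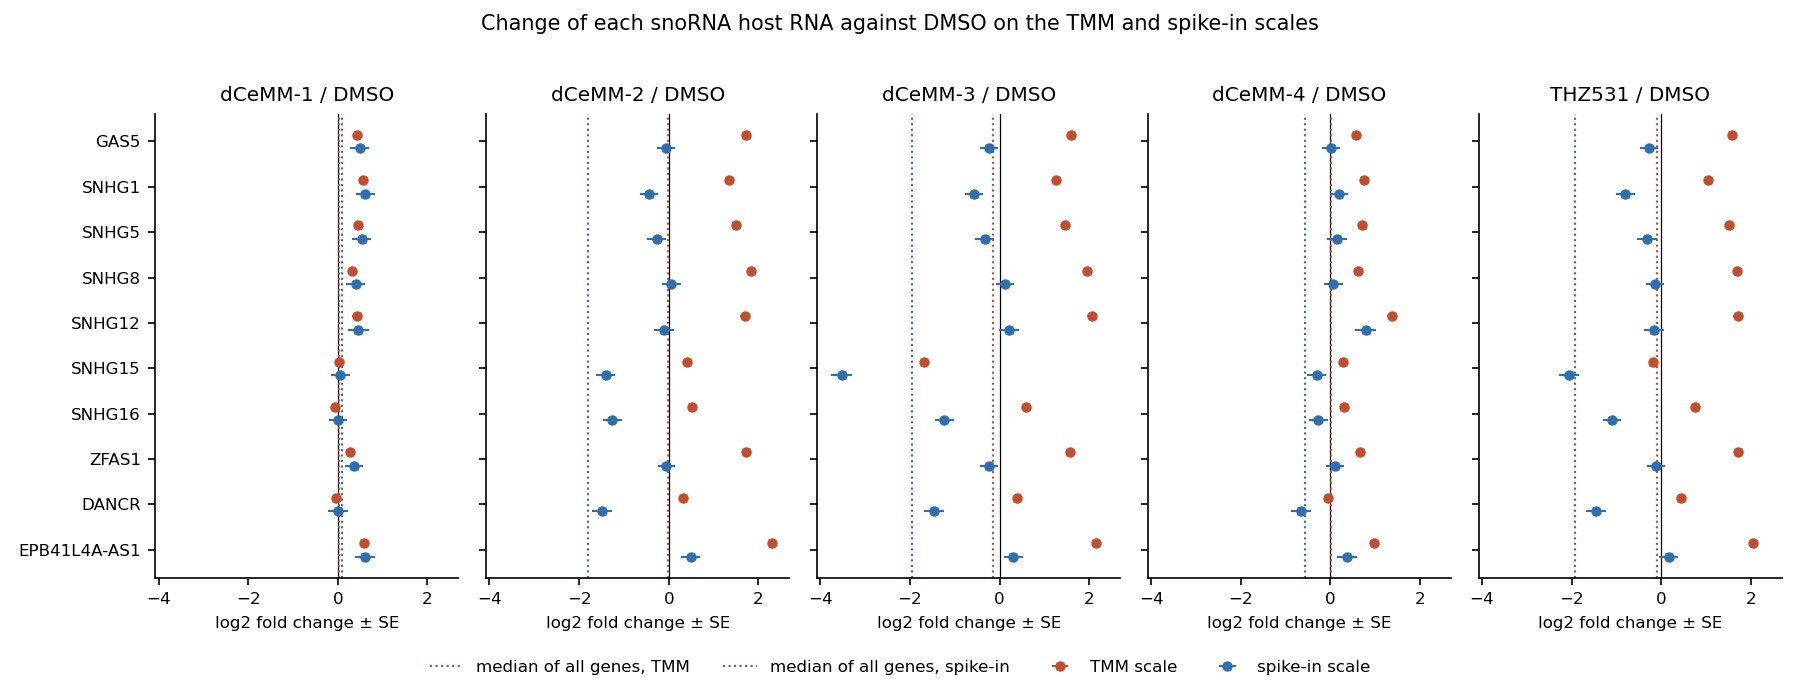
Log2 fold change of each member against DMSO (x axis, ± SE) with each compound, on the TMM scale (red) and the spike-in scale (blue), with dotted lines at the median of all 15055 genes on each scale. With dCeMM-2, dCeMM-3 and THZ531 most blue points lie near 0 and far right of the blue dotted line, while SNHG15, SNHG16 and DANCR lie between -3.53 and -1.10.

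The cyclin K degraders dCeMM-2, dCeMM-3 and dCeMM-4, given at the same multiple of EC50, were compared directly in 3 pairs, and each was set beside THZ531 in 3 more, although the dose of THZ531 was a fixed concentration and is not matched. dCeMM-2 and dCeMM-3 differed in 2 of 10 members, where 43.1% of all genes differed. SNHG15 was 4.25 times higher with dCeMM-2 than with dCeMM-3 (log2 ratio 2.09, 95% interval 1.89 to 2.29), and SNHG12 was lower (-0.37, -0.57 to -0.17). The call of SNHG12 was lost without the first dCeMM-3 library. For the other 8 members the 95% intervals lay within -0.28 and 0.31, which is what these libraries allow and does not show that the compounds act alike. On the spike-in scale the SNHG15 difference was 2.12 (SE 0.23), and that of SNHG12 did not pass (-0.32, SE 0.22).

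For 9 of the 10 members dCeMM-4 gave smaller TMM rises than dCeMM-2 and dCeMM-3. In dCeMM-2 against dCeMM-4, 9 members were higher and 0 lower (77.3% of all genes differed), from 0.23 for SNHG16 (0.10 to 0.35) to 1.34 for EPB41L4A-AS1 (1.19 to 1.50), and SNHG15 did not pass (0.14, -0.04 to 0.31). In dCeMM-3 against dCeMM-4, 9 were higher and 1, SNHG15, was lower (-1.95, -2.15 to -1.75), where 82.7% of all genes differed. The members' median was 0.70 and 0.73 in these 2 pairs. Over the 1115 tested lincRNA, antisense and processed transcript genes, the annotated classes the members belong to, it was 0.98 and 1.13. Of these genes, 58.0% and 62.7% were called higher and 8.43% and 10.9% lower. For most members the direction turned on the spike-in scale. There 0 members were higher and 5 lower with dCeMM-2, and 0 higher and 6 lower with dCeMM-3, than with dCeMM-4. The median of all genes there was -1.15 and -1.17 in that order, beside -0.52 and -0.53 for the members. Of protein-coding genes, 74.6% and 72.4% were called lower. Of lincRNA, antisense and processed transcript genes, 27.8% and 28.97% were called lower and 8.52% and 16.5% higher, with medians of -0.198 and -0.102. Beside 0.64 and 0.65 on the TMM scale, the members' median lay 0.63 and 0.65 above that of all genes on the spike-in scale. A change of scale shifts every gene by nearly the same amount, so these distances had to be close and give no separate support. GAS5, SNHG8, ZFAS1 and EPB41L4A-AS1 passed the test in neither pair on that scale, with values between -0.34 and 0.12.

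Against THZ531, dCeMM-2 differed in 4 members (30.3% of all genes differed): SNHG15 (0.60, 0.42 to 0.78), SNHG1 (0.31, 0.17 to 0.45) and EPB41L4A-AS1 (0.26, 0.11 to 0.41) were higher and SNHG16 (-0.22, -0.35 to -0.10) was lower. dCeMM-3 differed from THZ531 in 5 members (44.7% of all genes): SNHG12 (0.35), SNHG8 (0.25) and SNHG1 (0.21) were higher, and SNHG15 (-1.49, -1.69 to -1.28) and SNHG16 (-0.16) were lower. With dCeMM-4, 9 members were lower than with THZ531 and 1, SNHG15, was higher (0.47, 0.29 to 0.65), where 79.8% of all genes differed. The members' median in this pair was -0.65, beside -1.07 for the lincRNA, antisense and processed transcript genes. Of these genes, 61.9% were called lower and 9.69% higher. ZFAS1, SNHG8, EPB41L4A-AS1 and GAS5 were lower with dCeMM-4 by -1.05, -1.08, -1.08 and -0.99. On the spike-in scale these 4 did not pass the test (0.20 to 0.28, SE 0.20 to 0.21), and the other 6 members were higher with dCeMM-4 than with THZ531. The median of all genes there was 1.23, above the members' median of 0.63, and 76.8% of protein-coding genes were called higher. Of lincRNA, antisense and processed transcript genes, 28.4% were called higher and 10.3% lower, with a median of 0.19.

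**Figure D3:**
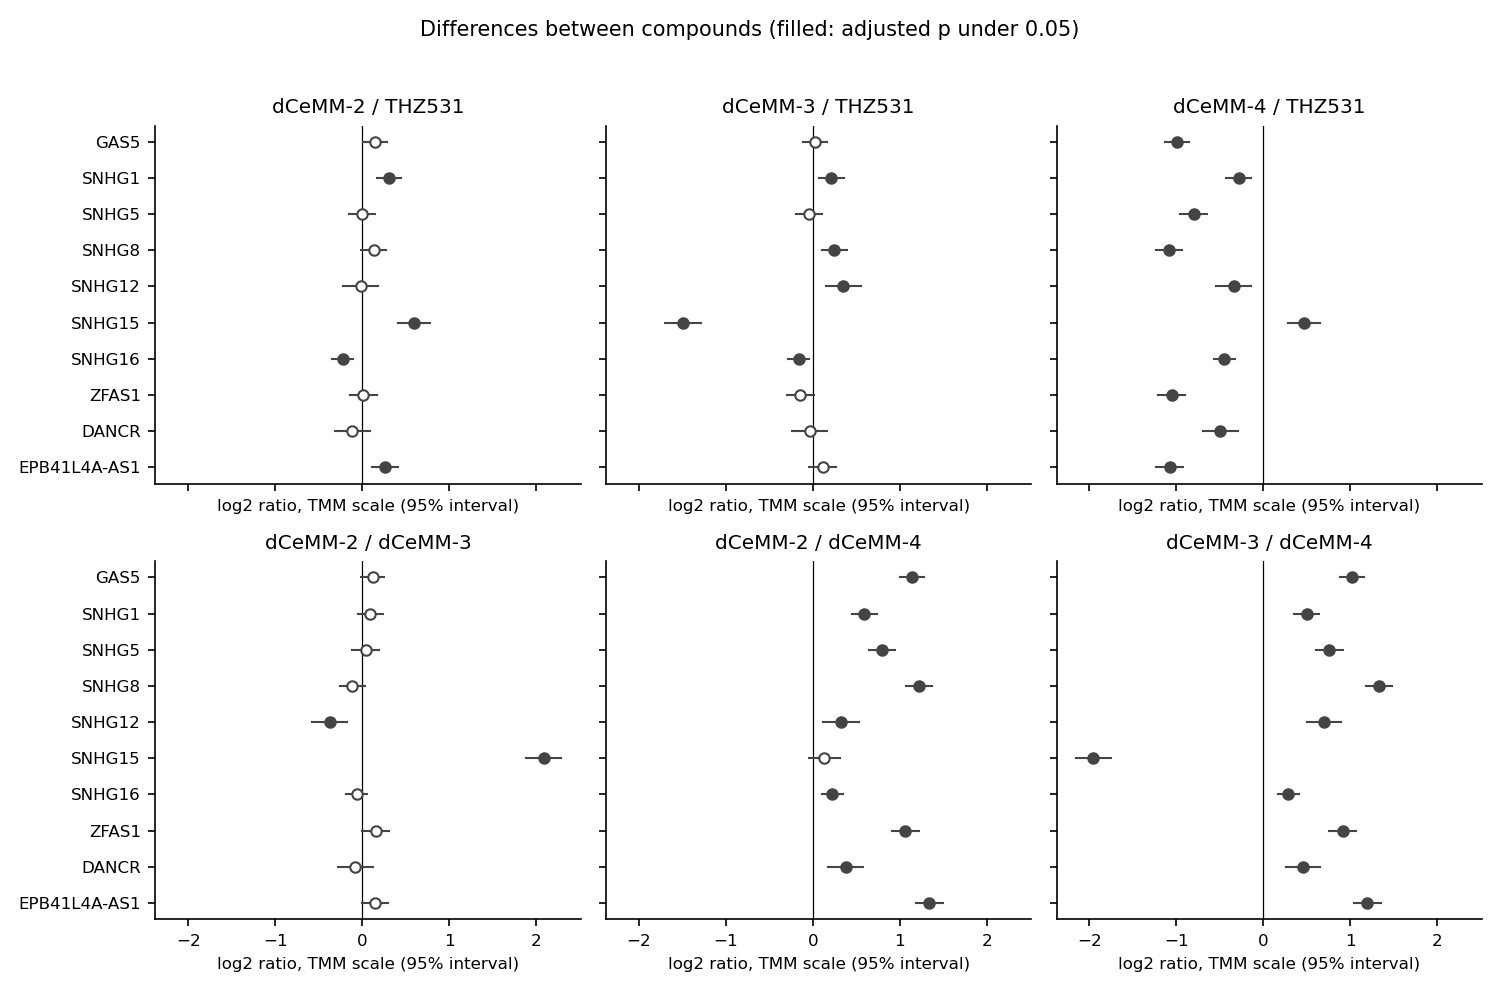
Log2 ratio between compounds for each member on the TMM scale (x axis, points) with 95% intervals (lines), one panel per pair, filled where the adjusted p was under 0.05. SNHG15 stands apart in each pair that holds dCeMM-3, at 2.09, -1.95 and -1.49, and the other 9 members lie below 0 in dCeMM-4 against THZ531.

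Levels can be compared between genes only per length. Per kilobase of merged exons on the TMM scale, ZFAS1 was highest in DMSO cells at 117 ± 15.4 CPM (SD, n = 3), followed by SNHG8 at 76.7 ± 5.62, GAS5 at 56.9 ± 1.26, SNHG16 at 34.1 ± 1.06 and SNHG1 at 24.5 ± 0.958. SNHG15 (16.4 ± 2.01) and DANCR (15.1 ± 1.82) did not differ beyond their SD, and SNHG5 (12.1 ± 0.498), EPB41L4A-AS1 (9.11 ± 0.938) and SNHG12 (3.17 ± 0.331) were lowest. With dCeMM-2 the order began ZFAS1 (385 ± 11.9), SNHG8 (276 ± 10.8) and GAS5 (187 ± 3.51), and EPB41L4A-AS1 stood at 44.3 ± 2.52, above SNHG5, SNHG15 and DANCR. With dCeMM-3 SNHG15 was the lowest of the 10, at 5.07 ± 0.183 CPM per kilobase, below SNHG12 at 13.0 ± 2.05. The length of the merged exons is an annotation of all isoforms together, and with the longest transcript as length GAS5 (122) stood above SNHG8 (105) in DMSO.

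Across the 18 libraries, log2 CPM of each member was correlated with the mean of the other 9. Pearson's r was 0.98 to 0.99 for GAS5, SNHG5, ZFAS1 and EPB41L4A-AS1, 0.97 for SNHG8, 0.93 for SNHG1, 0.92 for SNHG16 and 0.91 for SNHG12, 0.77 for DANCR and -0.38 for SNHG15. These values describe 6 groups of 3 libraries that share treatments and DMSO controls, and carry no test. Outside the members and lists, among genes with a mean of at least 5 CPM, the 5 genes with the highest r to the members' mean were NPC2, a lysosomal cholesterol carrier, LTA4H, an enzyme of leukotriene synthesis, COL6A1, a collagen chain, EIF1, a factor that selects start codons, and EPB41L2, a membrane skeleton protein, at 0.99 each over 18 libraries. EIF1 rose by 0.21, 1.94, 1.73, 0.73 and 1.64 on the TMM scale with dCeMM-1 to dCeMM-4 and THZ531 in that order, and was at 0.15, -0.10 and -0.22 with dCeMM-2, dCeMM-3 and THZ531 on the spike-in scale, none past the test. NPC2 also passed no test by spike-in scaling (-0.34, -0.39 and -0.30 with these 3). The remaining 3 were lower by that scaling: LTA4H at -0.51, -0.68 and -0.68, COL6A1 at -0.52, -0.71 and -0.53, and EPB41L2 at -0.52, -0.58 and -0.55.

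Several members overlap or abut a gene on the opposite strand, and the strand setting of the counting is not stated, so reads in the shared bases cannot be assigned from the tables. ZNFX1, an RNA helicase gene that runs away from ZFAS1 and overlaps its start (248 bases between the starts), had 46.0 ± 1.61 CPM with dCeMM-1, 8.54 ± 1.29 with dCeMM-2, 6.71 ± 0.466 with dCeMM-3, 46.9 ± 2.42 with dCeMM-4 and 10.6 ± 0.993 with THZ531, against 58.5 ± 4.31 CPM in DMSO (SD, n = 3). It was lower, at -2.76, -3.12 and -2.46 on the TMM scale, with dCeMM-2, dCeMM-3 and THZ531 (SE 0.10 to 0.11), the compounds with which ZFAS1 rose by 1.72, 1.56 and 1.71. TRNAU1AP, a selenocysteine tRNA-associated protein gene whose end meets that of SNHG12, was lower, at -0.84, -0.51 and -1.78, with dCeMM-2, dCeMM-3 and dCeMM-4, with which SNHG12 rose, and it rose by 0.29 with dCeMM-1. It was also lower with THZ531, at 6.20 ± 0.410 CPM against 12.6 ± 1.10 in DMSO. ZBTB37, a zinc finger gene that overlaps GAS5 with its start 800 bases away, fell by 1.09 with dCeMM-4 (SE 0.14), and SLC3A2, an amino acid transporter subunit whose start lies 188 bases from that of SNHG1, stood at 0.02 and 0.00 with dCeMM-2 and dCeMM-4. SLC3A2 was lower with dCeMM-1 and dCeMM-3, at -0.24 and -0.31, and rose by 0.30 with THZ531, and ZBTB37 rose by 0.45 with dCeMM-1 and 0.29 with dCeMM-3. GAS5-AS1, an antisense gene that overlaps GAS5, had 1.22 ± 0.811 CPM in dCeMM-2 libraries, 1.61 ± 0.336 in dCeMM-3 and 1.15 ± 0.310 in THZ531 libraries, against 0.568 ± 0.179 in DMSO. It rose by 1.33, 1.68 and 1.17 with these 3, as GAS5 did, and by spike-in scaling was at -0.39, -0.11 and -0.65, none past the test. EPB41L4A, a gene that overlaps EPB41L4A-AS1 on the other strand, passed no test on the TMM scale with any compound. Its group means were only 0.789 to 1.33 CPM, with an SE of 0.34 to 0.39 against DMSO, so sizeable changes could be missed. The neighbours had no common direction on the TMM scale. Scaled to spike-in reads, ZNFX1, TRNAU1AP, ZBTB37, SLC3A2 and EPB41L4A were all lower with dCeMM-2, dCeMM-3 and THZ531, at -4.96 to -1.50. The part of shared reads in any of these values was not tested.

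Of 23 snoRNA entries annotated inside 9 members on their strand, 16 had 0 counts in all 18 libraries and 7 had counts, of which the largest total was 180. Mature snoRNAs carry no poly-A tail, so counts in poly-A selected libraries are no measure of snoRNA output. SNORD12B, inside ZFAS1, had 10 counts with dCeMM-1, 42 with dCeMM-2, 36 with dCeMM-3, 23 with dCeMM-4 and 55 with THZ531, against 14 in DMSO, summed over 3 libraries and not scaled for depth. SNORA26, inside DANCR, had 39, 9, 5, 35 and 8 against 23 in DMSO. At these counts no comparison was made.

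Other genes of the same biology were taken as 7 lists. Their counts on the TMM scale stand beside the shares of all genes called higher and lower. These were 37.1% and 41.2% with dCeMM-2, 35.9% and 45.1% with dCeMM-3 and 32.9% and 35.3% with dCeMM-4. With THZ531 they were 35.8% and 43.7%, and with dCeMM-1 16.5% and 14.8%. Of 14 other non-coding snoRNA hosts 13 could be tested, and 10 rose and 1 fell with dCeMM-2, 8 and 1 with dCeMM-3, 12 and 0 with dCeMM-4, 10 and 1 with THZ531 and 5 and 0 with dCeMM-1, with medians of 1.37, 0.98, 0.69, 1.52 and 0.17. C6orf48 (SNHG32) rose by 2.12, 2.11 and 2.08 and LRRC75A-AS1 (SNHG29) by 1.64, 1.63 and 1.63 with dCeMM-2, dCeMM-3 and THZ531, close to GAS5 and ZFAS1. SNHG17, named after its values were seen as the 1 that fell, was lower with dCeMM-2, dCeMM-3 and THZ531, at -0.42, -1.08 and -0.98. SNHG9 rose by 2.59, 0.99, 1.85 and 2.36 under dCeMM-2, dCeMM-3, dCeMM-4 and THZ531, and was at 0.15 with dCeMM-1, not past the test. By spike-in scaling it rose by 0.82 with dCeMM-2 and 1.32 with dCeMM-4, fell by 0.83 with dCeMM-3 and was at 0.54 with THZ531, not past the test. Counts of lower genes by spike-in scaling stand beside 83% of all genes tested with dCeMM-2, 83.7% with dCeMM-3, 48% with dCeMM-4, 84.7% with THZ531 and 1.34% with dCeMM-1. By that scaling 1 of these 13 rose and 6 fell with dCeMM-2, 0 and 9 with dCeMM-3, 4 and 0 with dCeMM-4, 0 and 6 with THZ531 and 1 and 0 with dCeMM-1. Of 25 protein-coding snoRNA hosts outside the ribosomal proteins, 13 rose and 10 fell with dCeMM-2, 8 and 15 with dCeMM-3, 17 and 3 with dCeMM-4, 10 and 9 with THZ531, and 3 and 10 with dCeMM-1. RACK1, a ribosomal scaffold, rose by 1.30 with dCeMM-2 and WDR43, a ribosome assembly factor, fell by 1.69. Scaled to spike-in reads, 24 of these 25 hosts fell with dCeMM-2 and all 25 with dCeMM-3 and THZ531, none rose with these 3, and 8 fell and 1 rose with dCeMM-4 and 2 and 1 with dCeMM-1.

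Of 19 non-ribosomal TOP mRNAs 18 were tested, and all 18 rose with dCeMM-2, dCeMM-3 and THZ531, with medians of 1.31, 1.25 and 1.34, beside the members' 1.60, 1.52 and 1.54. With dCeMM-4, 17 rose (median 0.51) and with dCeMM-1 1 rose and 0 fell (median 0.06), where 7 members rose. EEF1A1, the translation elongation factor, rose by 1.41, 1.37 and 1.40 with dCeMM-2, dCeMM-3 and THZ531. Set against spike-in reads, 11, 17 and 16 of these 18 fell with the same 3 compounds and 0 rose, 1 fell and 0 rose with dCeMM-4 (median -0.06), and 0 passed the test with dCeMM-1. Over 1115 tested lincRNA, antisense and processed transcript genes, the annotated classes the members belong to, the TMM medians were 0.31, 0.72, 0.82, -0.10 and 0.82 with dCeMM-1 to dCeMM-4 and THZ531 in that order, each below that of the members.

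The mRNAs of NMD factors mostly fell with dCeMM-2, dCeMM-3 and THZ531. Of 19, 13 fell and 0 rose with dCeMM-2, 16 and 0 with dCeMM-3, 15 and 1 with THZ531, 8 and 6 with dCeMM-4 and 5 and 1 with dCeMM-1 (medians -0.66, -1.18, -0.53, -0.05 and -0.11). SMG8, a regulator of the NMD kinase, was lower, at -2.36, -3.85 and -2.89, and the helicase DHX34 at -3.23, -2.70 and -3.22, with dCeMM-2, dCeMM-3 and THZ531, while UPF1, the central NMD helicase and named after its values were seen, was at -0.17 with dCeMM-2, not past the test, fell by 0.58 with dCeMM-3 and rose by 0.34 with THZ531 and 0.77 with dCeMM-4. Of 10 reported NMD targets 8 rose and 2 fell with dCeMM-2, 5 and 3 with dCeMM-3, 7 and 2 with dCeMM-4, 7 and 2 with THZ531 and 3 and 1 with dCeMM-1. Among them are the stress genes GADD45B (3.63 with dCeMM-2) and CDKN1A (4.09), while TBL2 fell by 2.73. By spike-in scaling all 19 NMD factors fell with dCeMM-2, dCeMM-3 and THZ531, 11 fell and 0 rose with dCeMM-4, and 0 passed the test with dCeMM-1. Of the 10 targets 2 were higher and 6 lower with dCeMM-2 on that scale, 0 and 9 with dCeMM-3, 4 and 2 with dCeMM-4, 2 and 8 with THZ531 and 1 and 0 with dCeMM-1. The part of these mRNA changes in the host RNA levels was not tested, and no protein was measured.

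Of 18 decapping, exonuclease and exosome genes, 12 fell and 4 rose with dCeMM-2, 14 and 4 with dCeMM-3, 10 and 5 with dCeMM-4, 13 and 3 with THZ531 and 8 and 4 with dCeMM-1. The exosome subunit gene EXOSC4 was lower, at -3.68, -4.93 and -3.82, with dCeMM-2, dCeMM-3 and THZ531. Scaled to spike-in reads, every gene of these 18 was lower with the 3 compounds, 12 were lower and 0 higher with dCeMM-4, and 0 passed the test with dCeMM-1. Of 18 genes for snoRNP proteins, which package the snoRNAs that the hosts release, 9 fell and 5 rose with dCeMM-2, 12 and 5 with dCeMM-3, 5 and 8 with dCeMM-4 and 12 and 3 with THZ531. With dCeMM-1 15 fell and 0 rose (median -0.34), with the box C/D core protein NOP56 at -0.86, the pseudouridine synthase DKC1 at -0.81 and RRP9, which binds the U3 snoRNA, at -1.06. The core methyltransferase gene FBL rose with dCeMM-2 by 1.15, while SHQ1, an assembly factor of box H/ACA particles, fell by 1.94. By spike-in scaling every one of these 18 fell with dCeMM-2, dCeMM-3 and THZ531, 9 fell and 0 rose with dCeMM-4, and 4 fell and 0 rose with dCeMM-1.

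**Figure D4:**
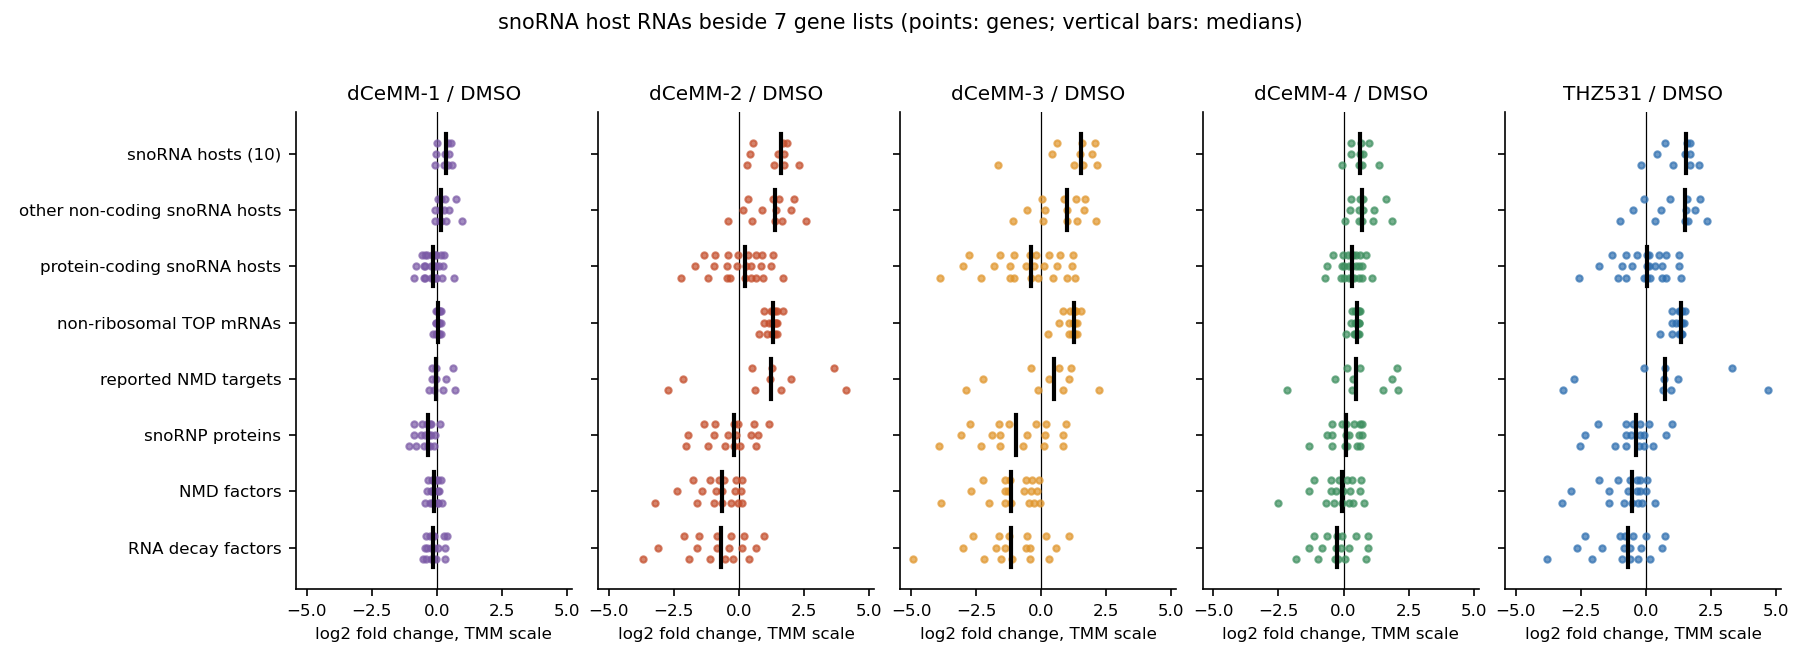
TMM log2 fold change against DMSO (x axis) of the 10 snoRNA host RNAs and of the tested genes of 7 lists (y axis) with each compound, with 1 point per gene and a bar at each median. With dCeMM-2 the members' median lies at 1.60, beside 1.37 for other non-coding hosts, 1.31 for non-ribosomal TOP mRNAs and -0.66 for NMD factors.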

How the data were processed

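Poly-A selected RNA of 18 libraries was sequenced after ERCC and SIRV spike-in RNA had been added, per the labels' protocols. The deposited tables hold raw read counts per Ensembl gene made by the authors; Trimmomatic 0.32, STAR 2.5.2b, Picard, HTSeq 0.11.2 and GRCh38.p7 are named in the submitters' processing notes, and their settings, strand use included, are not given in the sources used here. The 5 HTSeq summary rows were left out (no feature 4.44% to 9.06%, ambiguous 1.08% to 1.47%, not unique 27.0% to 44.4% relative to the library), so reads with several equal alignments, which near-identical copies give, are not counted. Gene positions come from GENCODE 29 (57447 of 58051 ids matched) and promoter sequences from RefSeq (GRCh38.p14, 9 of 10 members; SNHG15 was not matched). 

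Genes were filtered with filterByExpr (15055 kept), scaled with TMM and tested with edgeR 4.0.16 (R 4.3.3, limma 3.58.1), using the robust quasi-likelihood fit of all 18 libraries with 12 residual degrees of freedom and Benjamini-Hochberg adjustment at 0.05. The spike-in scale used spike-in reads as library size in the same fit. Values are TMM-scaled CPM, intervals are 95%, and a prior count of 2 was used for log2 CPM in correlations. Levels per length use the union of exons. The fit was checked on simulated data. Alternatives were DESeq2 1.42.0, DESeq2 size factors in edgeR, total counts, no low-count filter, only the 2 groups compared, a replicate block, each library left out, and the longest transcript as length. The text names all 10 members, up to 3 genes per list with the lowest p in a comparison, annotated neighbours, nested snoRNAs and the 5 genes most like the members; exceptions are marked. The members and the 7 lists (123 entries) were chosen with earlier results of these data known.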

Additional observations from a re-analysis of the deposited data

Results flagged for a closer look

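SNHG15 was the member whose called changes against DMSO ran in opposite directions between compounds that differed in a direct test. On the TMM scale it was higher with dCeMM-2 than with THZ531 by a log2 ratio of 0.60, where the changes against DMSO were 0.41 and -0.19. It was higher with dCeMM-4 than with THZ531 by 0.47, where the changes against DMSO were 0.27 and -0.19. The THZ531 change lost its call under several alternatives, so the opposite direction in these 2 pairs rests on a weak call, while the differences themselves do not use DMSO. SNHG15 was higher with dCeMM-2 than with dCeMM-3 by 2.09 (changes of 0.41 and -1.68 against DMSO). The log2 ratio of dCeMM-3 to dCeMM-4 was -1.95 (changes of -1.68 and 0.27 against DMSO).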

How the results depend on the processing

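Spike-in reads per library ranged from 7727 to 84595. The SE of the members was 0.20 to 0.24 with spike-in scaling and 0.06 to 0.11 on the TMM scale, and what made it larger was not tested. Intervals cover the spread between libraries and counting error, not what the spike-in amount stood for. Where a value turned or a call was lost, the cause was not tested.

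Scaling by spike-in reads turned the direction of 54 member values. In dCeMM-1 against DMSO the log2 values became 0.0090 for SNHG16 and 0.0026 for DANCR. In dCeMM-2 against DMSO the log2 values became -0.067 for GAS5, -0.44 for SNHG1, -0.27 for SNHG5, -0.11 for SNHG12, -1.41 for SNHG15, -1.26 for SNHG16, -0.050 for ZFAS1 and -1.50 for DANCR. In dCeMM-3 against DMSO the log2 values became -0.23 for GAS5, -0.57 for SNHG1, -0.34 for SNHG5, -1.23 for SNHG16, -0.24 for ZFAS1 and -1.47 for DANCR. In dCeMM-4 against DMSO the log2 values became -0.31 for SNHG15 and -0.27 for SNHG16. In THZ531 against DMSO the log2 values became -0.27 for GAS5, -0.81 for SNHG1, -0.32 for SNHG5, -0.14 for SNHG8, -0.16 for SNHG12, -1.10 for SNHG16, -0.12 for ZFAS1 and -1.46 for DANCR. In dCeMM-2 against THZ531 the log2 values became 0.051 for SNHG5 and 0.057 for SNHG12. In dCeMM-4 against THZ531 the log2 values became 0.28 for GAS5, 1.00 for SNHG1, 0.47 for SNHG5, 0.20 for SNHG8, 0.95 for SNHG12, 0.83 for SNHG16, 0.22 for ZFAS1, 0.80 for DANCR and 0.20 for EPB41L4A-AS1. In dCeMM-2 against dCeMM-4 the log2 values became -0.079 for GAS5, -0.63 for SNHG1, -0.42 for SNHG5, -0.0043 for SNHG8, -0.89 for SNHG12, -1.10 for SNHG15, -0.99 for SNHG16, -0.16 for ZFAS1 and -0.84 for DANCR. In dCeMM-3 against dCeMM-4 the log2 values became -0.25 for GAS5, -0.76 for SNHG1, -0.48 for SNHG5, -0.57 for SNHG12, -0.97 for SNHG16, -0.34 for ZFAS1, -0.81 for DANCR and -0.058 for EPB41L4A-AS1.

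With spike-in scaling the number of members called was 0 higher in dCeMM-1 against DMSO, 1 higher and 4 lower in dCeMM-2 against DMSO, 0 higher and 4 lower in dCeMM-3 against DMSO, 1 higher and 1 lower in dCeMM-4 against DMSO, 0 higher and 4 lower in THZ531 against DMSO, 1 higher and 0 lower in dCeMM-2 against THZ531, 0 higher and 1 lower in dCeMM-3 against THZ531, 6 higher and 0 lower in dCeMM-4 against THZ531, 0 lower in dCeMM-2 against dCeMM-3, 0 higher and 5 lower in dCeMM-2 against dCeMM-4, 0 higher and 6 lower in dCeMM-3 against dCeMM-4. The spike-in shares of all genes called against DMSO are given above. Between compounds, the shares of protein-coding genes called higher and lower were as follows. Against THZ531 they were 10.4% and 0.924% with dCeMM-2, 7.46% and 15.6% with dCeMM-3 and 76.8% and 1.48% with dCeMM-4. They were 21.1% and 4.48% in dCeMM-2 against dCeMM-3, 1.94% and 74.6% in dCeMM-2 against dCeMM-4 and 4.27% and 72.4% in dCeMM-3 against dCeMM-4. The shares differed for lincRNA, antisense and processed transcript genes, the members' classes. Against THZ531 those were 1.35% and 1.17% with dCeMM-2, 4.84% and 4.3% with dCeMM-3 and 28.4% and 10.3% with dCeMM-4. In dCeMM-2 against dCeMM-3 they were 3.86% and 4.48%. Against dCeMM-4 they were 8.52% and 27.8% with dCeMM-2 and 16.5% and 28.97% with dCeMM-3. With total counts the number of members called was 1 lower in dCeMM-4 against DMSO, 1 lower in dCeMM-3 against THZ531, 2 lower in dCeMM-2 against dCeMM-3. With DESeq2 size factors the number of members called was 0 lower in THZ531 against DMSO, 3 lower in dCeMM-2 against dCeMM-3. With only the 2 groups compared the number of members called was 0 lower in THZ531 against DMSO, 1 lower in dCeMM-3 against THZ531. With DESeq2 the number of members called was 0 lower in THZ531 against DMSO, 3 lower in dCeMM-2 against dCeMM-3. Without the low-count filter the number of members called was 1 lower in dCeMM-3 against THZ531.

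The other 34 reversals were of member values that did not pass the test. With DESeq2 size factors the log2 value was -0.014 for SNHG15 in dCeMM-1 against DMSO, 0.065 for DANCR in dCeMM-4 against DMSO, -0.061 for ZFAS1 in dCeMM-2 against THZ531 and -0.040 for SNHG5 in dCeMM-2 against dCeMM-3. With only the 2 groups compared the log2 value was -0.0040 for SNHG15 in dCeMM-1 against DMSO and -0.038 for ZFAS1 in dCeMM-2 against THZ531. With DESeq2 the log2 value was -0.0065 for SNHG15 in dCeMM-1 against DMSO, 0.059 for DANCR in dCeMM-4 against DMSO, -0.058 for ZFAS1 in dCeMM-2 against THZ531 and -0.033 for SNHG5 in dCeMM-2 against dCeMM-3. With total counts the log2 value was 0.0057 for DANCR in dCeMM-1 against DMSO, 0.016 for SNHG5 in dCeMM-2 against THZ531, 0.025 for SNHG5 in dCeMM-3 against THZ531, 0.027 for DANCR in dCeMM-3 against THZ531 and -0.0084 for SNHG5 in dCeMM-2 against dCeMM-3. With no low-count filter the log2 value was 0.00060 for SNHG5 in dCeMM-2 against THZ531. With each library left out in turn the log2 values ranged from -0.091 to 0.083 for SNHG15 in dCeMM-1 against DMSO, -0.11 to 0.034 for DANCR in dCeMM-1 against DMSO, -0.14 to 0.0054 for DANCR in dCeMM-4 against DMSO, -0.033 to 0.034 for SNHG5 in dCeMM-2 against THZ531, -0.057 to 0.025 for SNHG12 in dCeMM-2 against THZ531, -0.018 to 0.068 for ZFAS1 in dCeMM-2 against THZ531, -0.038 to 0.10 for GAS5 in dCeMM-3 against THZ531, -0.12 to 0.055 for DANCR in dCeMM-3 against THZ531 and -0.13 to 0.0084 for DANCR in dCeMM-2 against dCeMM-3.

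Leaving out each library in turn gave 0 to 1 members called lower in THZ531 against DMSO, 1 to 2 members called higher in dCeMM-2 against dCeMM-3 and 0 to 1 members called lower in dCeMM-2 against dCeMM-3. The single higher call of SNHG15 in dCeMM-2 against dCeMM-3 was joined by 1 more (EPB41L4A-AS1, GAS5 or ZFAS1) without the second dCeMM-2 library or the second dCeMM-3 library or the third. The lower call, of SNHG12, was lost without the first dCeMM-3 library.

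No replicate pairing is stated in the labels: of 33 same-numbered pairs 1 had a correlation of deviations over 0.1 (range -0.14 to 0.12), and 9 of 18 libraries correlated best with their own number. With the replicate number as a block the counts were as without it for all 22 counts of members called, with 10 higher in dCeMM-2 against DMSO, and no member value changed its direction or call. The per-length level in DMSO cells with the longest transcript as length was 243 for ZFAS1, 122 for GAS5, 105 for SNHG8, 50.7 for SNHG16, 38.1 for DANCR, 33.3 for SNHG1, 32.9 for SNHG5, 19.2 for SNHG15, 10.3 for EPB41L4A-AS1 and 6.77 for SNHG12.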
